A study of Mus musculus with 8 samples.

Results

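The 10 CC chemokines described here are Ccl2, Ccl3, Ccl4, Ccl5, Ccl7, Ccl8, Ccl12, Ccl17, Ccl22 and Ccl24. They were taken by symbol from the array annotation, through probe sets that carry a single gene symbol, and each was read by 1 probe set. They are 10 of 18193 genes on the array, and all 10 were among the 12540 genes tested. Levels were measured in thioglycollate-elicited peritoneal macrophages, cells recruited to the mouse peritoneal cavity by a sterile irritant. Cells labelled Zc3h12a knockout and cells labelled wild type were each harvested after 0, 1, 2 and 4 h of lipopolysaccharide (LPS) at 100 ng/ml, with 1 array for each genotype and time. LPS is the bacterial cell wall component sensed by Toll-like receptor 4, and Zc3h12a encodes an RNase that degrades cytokine messenger RNAs. Age, the number of animals and any pooling of cells are not given in the sources used here.

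Levels are log2 values after robust multi-array averaging (RMA), so a difference of 1 is a doubling, and levels of different probe sets cannot be set against each other. No group has a second array. The genotype difference was therefore tested over the 4 times with time as a block, and the LPS response over both genotypes with genotype as a block. Both came from 1 limma fit with 3 residual degrees of freedom and Benjamini-Hochberg adjustment over all 12540 genes, called at 0.05. Its p-values rest on how unevenly the genotype difference ran across the times, not on the spread between animals. In such bulk samples, fewer cells of a type and less RNA per cell cannot be told apart. Zc3h12a read 6.73, 7.70, 8.75 and 8.50 at 0, 1, 2 and 4 h on the arrays labelled knockout, against 6.12, 8.02, 8.87 and 8.57 on the wild-type arrays. On this, its brighter probe set, Zc3h12a was not lower at 0 h. Its other probe set, near the background given below, read 3.01 to 3.22 on the arrays labelled knockout and 3.12 to 3.31 on the wild-type arrays. Where the probe sets lie relative to the deletion is not known here. They therefore do not check the labels, and the arrays are called labelled knockout throughout. Each array's background was taken as the highest of 27 bacterial control probe sets, which lay between 2.96 and 3.26, and the correlation between arrays ran from 0.933 to 0.988.

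CC chemokines are small secreted proteins with a pair of adjacent cysteines near the start of the mature protein, and they draw leukocytes along a gradient through G protein-coupled receptors. Activated macrophages are a major source of those that attract monocytes and T cells. Transcription of Ccl2, Ccl3, Ccl4 and Ccl5 is known to be driven by NF-kB downstream of Toll-like receptors, and Ccl5 also by interferon regulatory factors. Ccl17, Ccl22 and Ccl24 are better known as products of macrophages or dendritic cells under interleukin-4 and interleukin-13, acting through STAT6.

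Most of the genes sit in clusters, and the promoters of 2 pairs of neighbours are shown because the pairs gave different time courses. Ccl17 and Ccl22 lie on mouse chromosome 8 with Cx3cl1 between them, and Ccl12 and Ccl8 lie next to each other on chromosome 11. Promoters of Ccl3, Ccl8, Ccl12, Ccl17 and Ccl22, 5 of the 10 genes, were found in the RefSeq sequences for GRCm38.p6, each running from 250 bases before to 50 bases after the gene's start. Ccl2, Ccl4, Ccl5, Ccl7 and Ccl24 were not matched. In the windows at chr8:94810203-94810502 (Ccl17), chr8:94745434-94745733 (Ccl22), chr11:82101595-82101894 (Ccl12) and chr11:82114935-82115234 (Ccl8), all on the forward strand and written 5′ to 3′, capitals mark the motif matches.
Ccl17: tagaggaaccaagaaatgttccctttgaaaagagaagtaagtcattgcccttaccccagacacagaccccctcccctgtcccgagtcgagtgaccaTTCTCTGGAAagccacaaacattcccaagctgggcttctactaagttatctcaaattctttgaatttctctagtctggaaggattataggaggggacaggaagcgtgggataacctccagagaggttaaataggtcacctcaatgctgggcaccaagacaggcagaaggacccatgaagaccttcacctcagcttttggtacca
Ccl22: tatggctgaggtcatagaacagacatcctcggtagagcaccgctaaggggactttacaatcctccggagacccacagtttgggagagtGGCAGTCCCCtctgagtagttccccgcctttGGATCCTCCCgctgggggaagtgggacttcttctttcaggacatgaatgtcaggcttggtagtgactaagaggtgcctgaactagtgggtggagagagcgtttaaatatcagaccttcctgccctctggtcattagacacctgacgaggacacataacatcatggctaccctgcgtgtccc
Ccl12: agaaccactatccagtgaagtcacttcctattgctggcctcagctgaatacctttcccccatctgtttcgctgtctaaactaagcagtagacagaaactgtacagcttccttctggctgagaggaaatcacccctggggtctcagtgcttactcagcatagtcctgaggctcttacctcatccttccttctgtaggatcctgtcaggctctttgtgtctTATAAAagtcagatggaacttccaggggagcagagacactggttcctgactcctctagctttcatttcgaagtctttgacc
Ccl8: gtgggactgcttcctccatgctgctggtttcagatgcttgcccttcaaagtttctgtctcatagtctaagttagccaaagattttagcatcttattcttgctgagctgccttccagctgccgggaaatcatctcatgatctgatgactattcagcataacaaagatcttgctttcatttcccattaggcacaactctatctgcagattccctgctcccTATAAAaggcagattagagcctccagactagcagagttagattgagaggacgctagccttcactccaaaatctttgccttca

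Both strands were searched for 5 motifs: NF-kB as GGG and CC with 5 bases between them, the interferon-stimulated response element as GAAA repeated after 2 bases, STAT6 as TTC and GAA with 4 bases between them, AP-1 as TGANTCA and the TATA box as TATAAA. The Ccl17 window held 1 STAT6 match, TTCTCTGGAA, starting 154 bases before the gene's start. That motif occurs in 6.98% of all 32544 promoters of this length. The Ccl22 window held 2 NF-kB matches on its reverse strand, printed above as GGCAGTCCCC and GGATCCTCCC, but 51.0% of all promoters hold that loose pattern. The Ccl12 and Ccl8 windows each held a TATAAA, starting 31 and 32 bases before the start, as do 13.6% of all promoters. The Ccl3 window held none of the 5 motifs. A match is a description of letters and shows no binding.

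Over the 4 times, 3 of the 10 chemokines were higher in labelled-knockout cells and none was lower, while 4.75% of all tested genes were called higher and 8.72% lower. After cyclic loess those shares were 5.81% higher and 6.69% lower, and after centring on housekeeping genes 3.84% higher and 12.5% lower. The 3 were Ccl24, Ccl17 and Ccl8. Of the remaining 7, Ccl5 and Ccl22 differed at least 2-fold at some of the times, and Ccl2, Ccl3, Ccl4, Ccl7 and Ccl12 differed by at most 0.69 at any time. The median difference of the 10 was 0.05, against -0.04 over all tested genes. LPS raised 6 of the 10 at 1 h, 7 at 2 h and 8 at 4 h and lowered none. Of all tested genes, 3.85%, 12.0% and 14.4% were called higher at those times, and 6.62%, 29.8% and 29.4% lower. That balance turned with the scaling. After centring on housekeeping genes 4.46%, 30.3% and 40.5% were called higher and 3.37%, 16.2% and 16.1% lower, and after cyclic loess 4.39%, 15.2% and 17.7% were called higher and 4.38%, 23.1% and 24.6% lower. Under these scalings LPS raised 6 of the 10 chemokines at 1 h, 8 at 2 h and 9 at 4 h. The median LPS response of the 10 was 2.31 at 1 h, 3.02 at 2 h and 4.05 at 4 h, against -0.09, -0.16 and -0.12 over all tested genes.

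**Figure D1:**
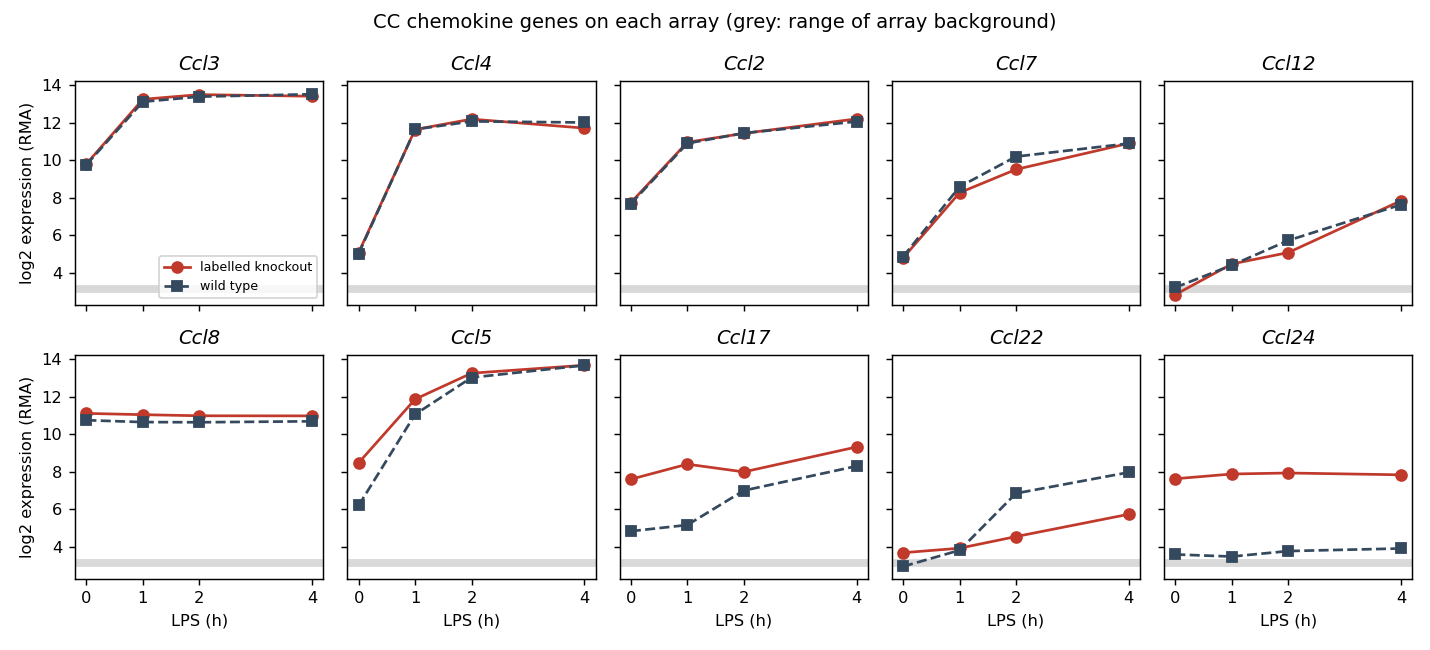
Level (log2, RMA) of each of the 10 CC chemokines against hours of LPS, one panel a gene, with a line for labelled-knockout arrays and a line for wild-type arrays and 1 array at each point. The lines overlie each other for Ccl2 and Ccl3, stay about 4 log2 units apart for Ccl24 (3.93 to 4.40), and cross for Ccl22.

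Ccl3 and Ccl4, also called MIP-1 alpha and MIP-1 beta, attract monocytes and T cells. Ccl3 read 9.80, 13.24, 13.49 and 13.40 at 0, 1, 2 and 4 h in labelled-knockout cells, against 9.75, 13.11, 13.38 and 13.51 in wild-type cells. The genotypes ran within 0.13 of each other at every time. LPS raised Ccl3 by 3.40 at 1 h (SE 0.11, limma adjusted p = 2.73e-05), a 10.6-fold response. The further steps from 1 h to 2 h (0.26, adjusted p = 0.155) and from 2 h to 4 h (0.02, adjusted p = 0.93) were not called by limma.

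Fitted over both genotypes, Ccl4 had the largest LPS response of the 10 at each time, although in wild-type cells alone the difference between 4 h and 0 h was larger for Ccl5, at 7.48. It read 5.07, 11.63, 12.18 and 11.70 in labelled-knockout cells, against 5.01, 11.64, 12.06 and 12.00 in wild-type cells. LPS raised it 96.7-fold at 1 h, 136-fold at 2 h and 113-fold at 4 h, with a log2 response of 6.60 at 1 h (SE 0.14, limma adjusted p = 5.59e-06). The step from 1 h to 2 h was 0.49 (limma adjusted p = 0.0468, and above 0.05 when any 1 of the 0, 1 or 2 h arrays was left out), and that from 2 h to 4 h was -0.27 (limma adjusted p = 0.229). The genotype difference over the 4 times was 0.04 for Ccl3 (SE 0.08, limma adjusted p = 0.747) and -0.03 for Ccl4 (SE 0.10, limma adjusted p = 0.847). The largest gap for Ccl4 was at 4 h, where labelled-knockout cells read 0.30 below wild-type cells.

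Ccl2, Ccl7, Ccl12 and Ccl8 belong to the monocyte chemoattractant protein group, of which Ccl2, Ccl7 and Ccl12 act on Ccr2, the receptor that brings inflammatory monocytes out of the bone marrow. Mouse Ccl8 is known as a ligand of Ccr8. Ccl2 read 7.73, 10.95, 11.42 and 12.20 in labelled-knockout cells, against 7.67, 10.89, 11.44 and 12.06 in wild-type cells. The 2 genotypes differed by no more than 0.14 at any time (0.06 over the 4 times, SE 0.07, limma adjusted p = 0.598). LPS raised Ccl2 9.31-fold at 1 h and 21.5-fold at 4 h (log2 4.42, limma adjusted p = 4.49e-06). It went on climbing after 1 h, by 0.51 from 1 h to 2 h (limma adjusted p = 0.0185, and 0.0788 to 0.104 when any 1 of the 1 or 2 h arrays was left out) and by 0.70 from 2 h to 4 h (limma adjusted p = 0.00597, and 0.0526 without the 2 h array of labelled-knockout cells).

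Ccl7 read 4.78, 8.26, 9.50 and 10.89 in labelled-knockout cells, against 4.85, 8.58, 10.19 and 10.88 in wild-type cells. Labelled-knockout cells were lower by 0.32 at 1 h and 0.69 at 2 h, and the genotypes met again at 4 h, where they differed by 0.01. Over the 4 times the difference was -0.27 (SE 0.13, limma adjusted p = 0.214). LPS raised Ccl7 12.1-fold at 1 h, 32.6-fold at 2 h and 67.3-fold at 4 h, and both later steps were called, at 1.43 (limma adjusted p = 0.00384) and 1.04 (limma adjusted p = 0.0104). The second of these calls ended when labelled-knockout cells lacked their 2 h array (limma adjusted p = 0.0515) or their 4 h array (0.0750).

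Ccl12 had its largest step between 2 h and 4 h. It read 2.82, 4.46, 5.07 and 7.83 in labelled-knockout cells, against 3.20, 4.39, 5.71 and 7.62 in wild-type cells. The 0 h labelled-knockout value lay below that array's background of 2.96, so the response there at 4 h was at least 29.3-fold. Labelled-knockout cells read lower at 0 h and 2 h and higher at 1 h and 4 h, and the difference over the 4 times was -0.19 (SE 0.15, limma adjusted p = 0.445). The fitted LPS response was 1.41 at 1 h (limma adjusted p = 0.0116), 2.37 at 2 h and 4.72 at 4 h (limma adjusted p = 2.52e-05). Its step from 2 h to 4 h was 2.34 (limma adjusted p = 0.00111). The 1 h call ended when the 0 h array of labelled-knockout cells (limma adjusted p = 0.0965), their 1 h array (0.0651) or the 0 h array of wild-type cells (0.0675) was left out.

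Ccl8, whose start lies next to that of Ccl12 and whose promoter window holds the same TATAAA, showed no called LPS response. It read 11.10, 11.04, 10.98 and 10.97 in labelled-knockout cells, against 10.74, 10.64, 10.63 and 10.68 in wild-type cells. Labelled-knockout cells read higher at each of the 4 times, by 0.29 to 0.40. The difference was 0.35 over the 4 times (SE 0.07, 1.27-fold, limma adjusted p = 0.0291). Leaving out any 1 of the 8 arrays ended that call (limma adjusted p 0.0692 to 0.113), as did centring on housekeeping genes (0.0514) and fitting no time block (0.191). Its LPS responses were -0.08, -0.12 and -0.10 at 1, 2 and 4 h, with limma adjusted p of 0.667, 0.385 and 0.495.

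**Figure D2:**
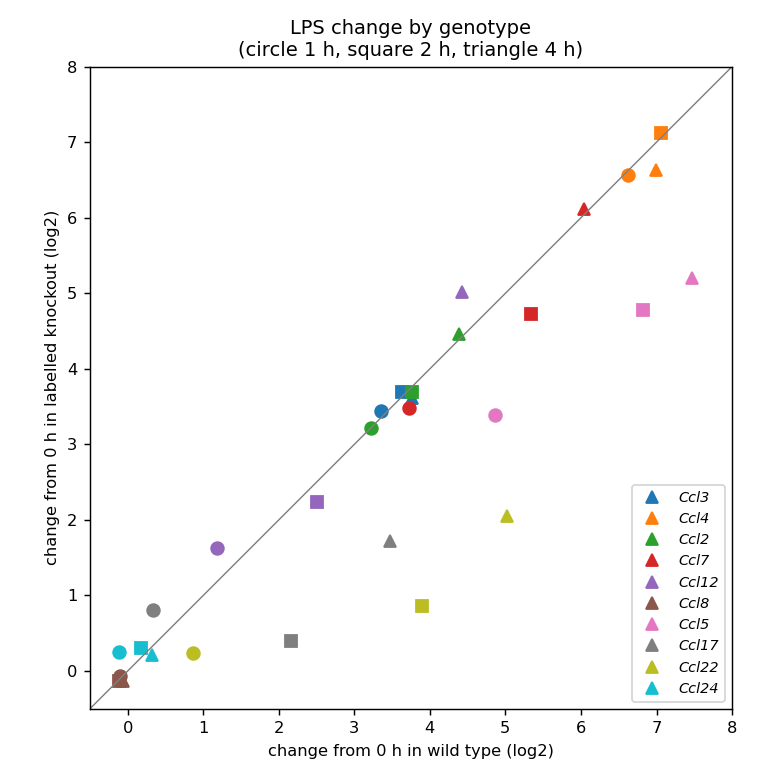
Difference from 0 h (log2) in labelled-knockout cells (vertical axis) against that in wild-type cells (horizontal axis) for the 10 CC chemokines, with a colour for each gene, circles for 1 h, squares for 2 h, triangles for 4 h and a line of equality. Ccl4 lies near the line, and Ccl5, Ccl17 and Ccl22 lie below it at 2 h and 4 h.

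Between 1 h and 2 h, 4 of the 10 stepped up (Ccl2, Ccl4, Ccl7 and Ccl12), where 7.71% of all tested genes were called higher and 14.6% lower (12.5% and 8.89% after centring on housekeeping genes). Between 2 h and 4 h, 3 stepped up (Ccl2, Ccl7 and Ccl12), where 11.3% of all tested genes were called higher and 9.72% lower (13.0% and 7.35% after that centring). None was called lower in either step. The monocyte attractants acting on Ccr2 made up all 3 of the later steps called in this fit. The count for the first of these steps fell to 1 when the wild-type 1 h, wild-type 2 h or labelled-knockout 1 h array was left out, and to 2 without the labelled-knockout 2 h array. Of labelled-knockout arrays, leaving out the 2 h one gave 1 call for the later step and leaving out the 4 h one gave 2.

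Ccl5, also called RANTES, attracts T cells and monocytes. It read 8.47, 11.86, 13.25 and 13.67 in labelled-knockout cells, against 6.19, 11.05, 13.02 and 13.67 in wild-type cells. Before LPS the labelled-knockout array read 4.84-fold higher, and the gap was 1.75-fold at 1 h, 1.17-fold at 2 h and 1.00-fold at 4 h. The difference over the 4 times was 0.83 (SE 0.36, limma adjusted p = 0.175). In an interaction fit, the mean difference after LPS minus the difference at 0 h was -1.93 (SE 0.35, unadjusted p = 0.00239, limma adjusted p = 1.00). No gene of 12540 was called for that term (0% called, 434 genes with an unadjusted p under 0.05), and with trend and robust settings 15 genes were called.

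LPS raised Ccl5 17.5-fold at 1 h (log2 4.13, SE 0.51, limma adjusted p = 0.00495), 55.8-fold at 2 h (limma adjusted p = 0.000401) and 81.0-fold at 4 h (limma adjusted p = 0.000173). Those responses averaged unlike genotypes: the 4 h level lay 5.21 above the 0 h level in labelled-knockout cells and 7.48 above it in wild-type cells. Leaving out the 0 h array of labelled-knockout cells gave fitted responses of 5.09, 6.77 and 7.30 at 1, 2 and 4 h, and leaving out that of wild-type cells gave 3.16, 4.84 and 5.38. The 1 h call ended with trend and robust settings (limma adjusted p = 0.0543). The step from 1 h to 2 h was 1.68 (limma adjusted p = 0.0616, and 0.00962 without either 0 h array) and that from 2 h to 4 h was 0.54 (limma adjusted p = 0.531). The 0 h labelled-knockout array also had the largest gap between the 3′ and 5′ probe sets of Actb, a sign of RNA quality, at 3.11 against 2.64 on the 0 h wild-type array. The NF-kB target and feedback genes, 11 tested, had a median difference of -0.08 at 0 h, from -0.52 for Icam1 to 1.64 for Ptgs2. The part of RNA quality in the 0 h values was not tested.

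**Figure D3:**
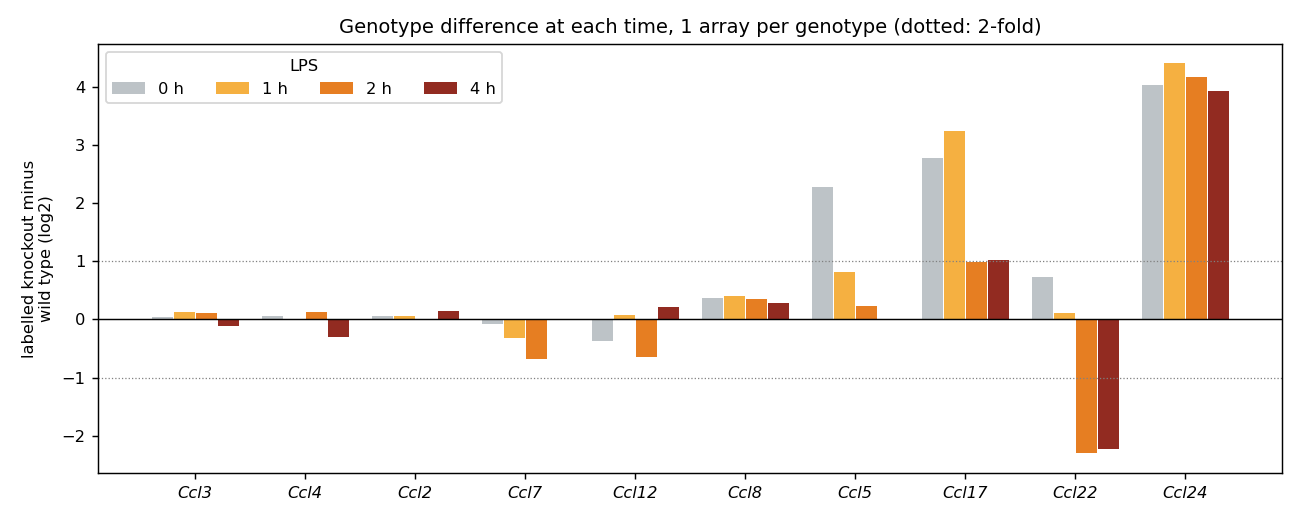
Difference between labelled-knockout and wild-type cells (log2) at 0, 1, 2 and 4 h for each of the 10 CC chemokines, from 1 array of each genotype at each time. Ccl24 stays between 3.93 and 4.40, Ccl5 falls with time to 0.01, and Ccl22 is positive at 0 h and below -2 at 2 h and 4 h.

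Ccl17 and Ccl22, also called TARC and MDC, are the ligands of Ccr4, a receptor of type 2 helper and regulatory T cells. The 2 neighbouring genes had genotype differences of opposite sign at 2 h and 4 h. Ccl17 read 7.59, 8.39, 7.98 and 9.31 in labelled-knockout cells, against 4.82, 5.15, 6.99 and 8.29 in wild-type cells. The groups overlapped, since wild-type cells at 4 h exceeded labelled-knockout cells at 0 h and 2 h, but labelled-knockout cells were higher at each of the 4 matched times. The excess was 6.82-fold at 0 h, 9.47-fold at 1 h, 1.99-fold at 2 h and 2.03-fold at 4 h.

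Over the 4 times Ccl17 was higher by 2.01 (SE 0.41, 4.02-fold, limma adjusted p = 0.0278). The call was lost without either 0 h array (limma adjusted p = 0.112) or either 1 h array (0.0525), with trend and robust settings (0.0917) and with no time block (0.473). The fitted LPS response was 0.57 at 1 h (limma adjusted p = 0.601), 1.28 at 2 h (limma adjusted p = 0.124) and 2.60 at 4 h (limma adjusted p = 0.0119). The 4 h call ended when wild-type cells lacked their 0 h array (limma adjusted p = 0.0947) or their 4 h array (0.0951), with trend and robust settings (0.0635) and with no genotype block (0.174). With 1 array left out the 4 h response was lowest, at 1.94, when the wild-type 4 h array was the one dropped and highest, at 3.25, when the labelled-knockout 4 h array was.

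Ccl22 read 3.67, 3.91, 4.53 and 5.72 in labelled-knockout cells, against 2.94, 3.80, 6.84 and 7.96 in wild-type cells. The ranges overlapped, with the 2 highest values those of wild-type cells at 2 h and 4 h. At 2 h and 4 h labelled-knockout cells differed by -2.31 and -2.24, so that wild-type cells were 4.94-fold and 4.71-fold higher. The wild-type 0 h value lay below that array's background of 3.06. On these single arrays labelled-knockout cells therefore read at least 1.53-fold higher at 0 h. Wild-type cells at 4 h read at least 29.9-fold above their 0 h level.

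The difference of Ccl22 over the 4 times, which averages these opposite signs, was -0.92 (SE 0.55, limma adjusted p = 0.299). Its change after LPS was -2.21 (SE 1.00, unadjusted p = 0.0768, limma adjusted p = 1.00) and -3.00 without either 1 h array (limma adjusted p = 0.0479). The fitted LPS response was 0.55 at 1 h, 2.38 at 2 h (SE 0.78, limma adjusted p = 0.0497) and 3.54 at 4 h (limma adjusted p = 0.0110). The 2 h call was lost in 10 of the alternatives tried. Leaving out the 0 h array of labelled-knockout cells gave 3.49 at 2 h and 4.64 at 4 h, and leaving out that of wild-type cells gave 1.27 and 2.43. At 4 h the call ended when wild-type cells lacked their 0 h array (limma adjusted p = 0.0742) or their 4 h array (0.0898), and with trend and robust settings (0.0551).

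Ccl24, also called eotaxin-2, attracts eosinophils through Ccr3 and is made by macrophages under interleukin-4. It had the largest genotype difference of the 10. Ccl24 read 7.62, 7.87, 7.92 and 7.83 in labelled-knockout cells, against 3.58, 3.47, 3.76 and 3.90 in wild-type cells. Labelled-knockout cells read higher at each time, by 16.4-fold at 0 h, 21.2-fold at 1 h, 17.9-fold at 2 h and 15.2-fold at 4 h. The wild-type values lay above but close to their array backgrounds of 3.06, 3.13, 3.26 and 3.02. The size of the difference and any LPS change in wild-type cells are therefore less certain.

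Over the 4 times Ccl24 was higher by 4.13 (SE 0.10, 17.6-fold, limma adjusted p = 1.18e-05). The call held in 20 of the 20 alternatives tried, but these were not separate checks. For genotype, leaving out either array of a time gave the same fit as leaving out both. Other probe set rules could not change the values of a gene read by 1 probe set, and a 2-fold minimum could not remove a 17.6-fold difference. Its LPS responses of 0.07, 0.24 and 0.26 at 1, 2 and 4 h were not called. After cyclic loess they were 0.49 at 2 h and 0.45 at 4 h and were called, as were those of 0.54 and 0.64 after centring on housekeeping genes. That centring moved the median LPS response of all tested genes at 4 h to 0.30, against -0.12 as deposited.

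**Figure D4:**
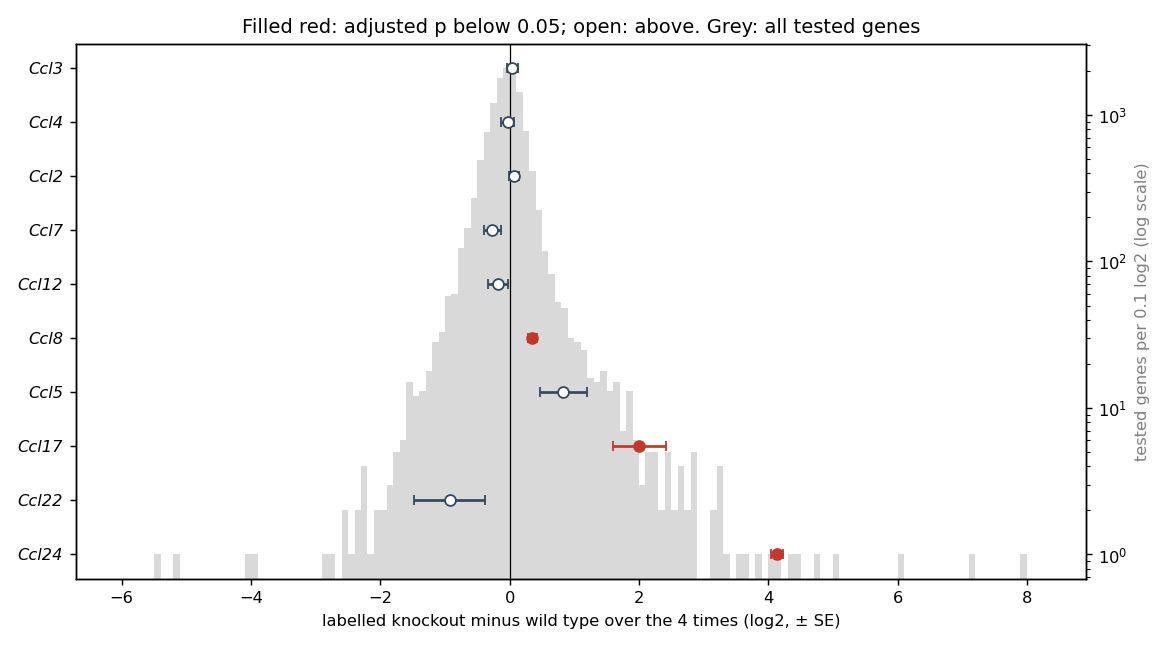
Genotype difference over the 4 times (labelled knockout minus wild type, log2, bars for the standard error of the limma fit) for the 10 CC chemokines, over a grey histogram of all tested genes on a log scale. Filled points, adjusted p below 0.05, are Ccl24 at 4.13, Ccl17 at 2.01 and Ccl8 at 0.35.

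By single times, with 1 array on each side and no test, a difference of at least 2-fold was seen at 0 h for Ccl5, Ccl17 and Ccl24 (3 of 10 higher, against 2.08% of all tested genes, with 1.70% lower). At 1 h it was seen for Ccl17 and Ccl24 (2 of 10, against 2.02%, with 1.35% lower). At 2 h Ccl24 was at least 2-fold higher (1 of 10, against 1.97%) and Ccl22 was at least 2-fold lower (1 of 10, against 2.84%), with Ccl17 just inside 2-fold at 1.99. At 4 h Ccl17 and Ccl24 were higher (2 of 10, against 1.67%) and Ccl22 was lower (1 of 10, against 2.20%).

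Among the other CC chemokines on the array, 6 passed the low-level filter, of which 2 were higher and 1 was lower in labelled-knockout cells. Of all tested genes, 4.75% were called higher and 8.72% lower. Ccl1, a ligand of Ccr8, was called higher (limma adjusted p = 0.0080), but it passed that filter through its labelled-knockout values. In wild-type cells 3 of its 4 values lay below background, so the size of its difference is not given. Ccl6 was higher by 0.32 (limma adjusted p = 0.0425). Ccl25, which brings T cells to the gut and thymus, differed by -0.40 (limma adjusted p = 0.0432), with 2 labelled-knockout values below background. Its other probe set lay above background on only 1 array and read 2.77 to 3.02 in labelled-knockout cells, against 2.72 to 3.05 in wild-type cells. Of the receptors and decoy receptors, 6 passed the filter and Ackr1 alone was called for genotype, at 0.41 (limma adjusted p = 0.0349). Ccrl2, a non-signalling receptor, responded to LPS by 4.34 at 1 h, and Ccr2 fell by 1.99 at 4 h, where its labelled-knockout value lay below background. Ccr4 and Ccr3, the receptors for Ccl17, Ccl22 and Ccl24, lay at background on all 8 arrays, as did Ccr7 and Ccr8.

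The known pathways of these chemokines were described through lists. Of 13 tested interleukin-4 and interleukin-13 response genes, 8 were higher in labelled-knockout cells and none was lower, with a median difference of 1.07. Of all tested genes, 4.75% were called higher and 8.72% lower. The 8 included Retnla (4.76), Chil3 (3.87), Mgl2 (2.81, with 2 wild-type values below background) and Arg1 (2.72), secreted or surface proteins and an enzyme of alternatively activated macrophages. Those not called were Il4ra (-0.49, limma adjusted p = 0.0664), Clec10a (0.11), Il13ra1 (0.07), Pdcd1lg2 (0.04) and Stat6 (-0.02). The list's median difference was 0.99, 1.32, 0.93 and 1.09 at 0, 1, 2 and 4 h. Of 11 NF-kB target and feedback genes, none was higher and 1 was lower, Icam1 at -0.59 (limma adjusted p = 0.0062), while LPS raised 11 of 11 at 1, 2 and 4 h. Of 11 interferon response genes, none was higher and 1 was lower, Ifit3 at -0.63 (limma adjusted p = 0.0226). LPS raised 6 of them at 1 h and 11 at 2 h and at 4 h. Of 11 mRNA decay factors, none was higher and 1 was lower, Zfp36l2 at -0.81 (limma adjusted p = 0.0040). In each of these 3 lists 1 of 11 genes called lower is close to the 8.72% of all tested genes.

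**Figure D5:**
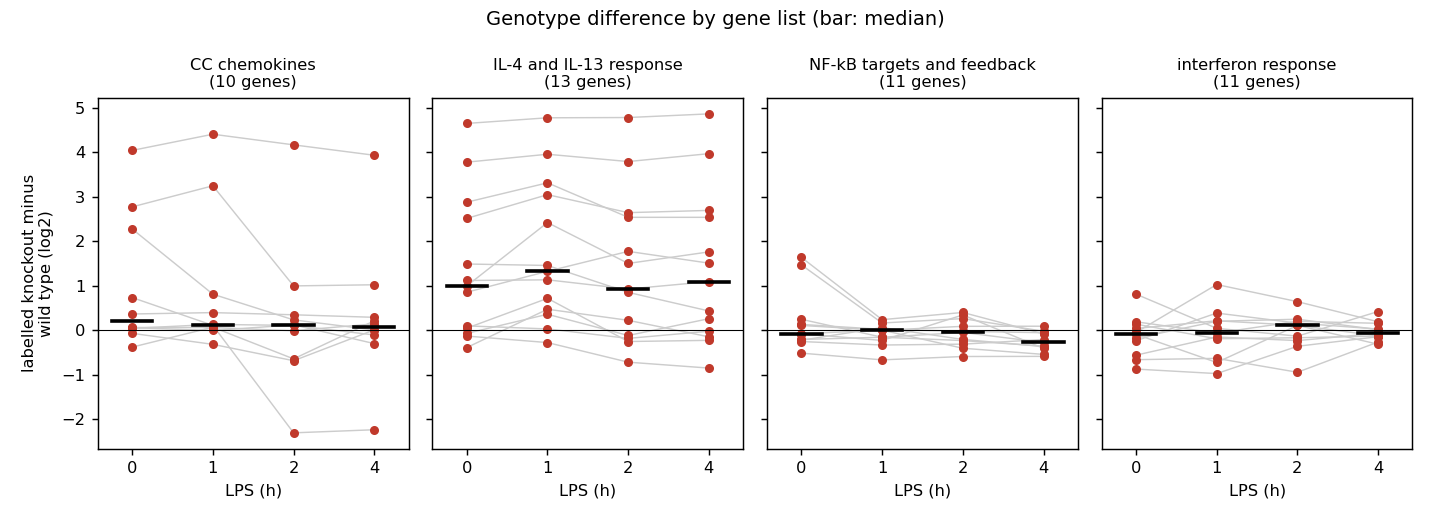
Difference between labelled-knockout and wild-type cells (log2) against hours of LPS for each gene (points joined by lines) of 4 lists, with bars for the list medians and 1 array of each genotype at each time. The median of the interleukin-4 and interleukin-13 response list stays between 0.93 and 1.32.

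Markers of cell types other than elicited macrophages were read beside these differences. Of 9 resident peritoneal macrophage markers, 8 were higher in labelled-knockout cells, among them Prg4 (3.29), F5 (2.45) and Cxcl13 (1.53), and the mean level of the list was 8.07 to 8.53 on labelled-knockout arrays and 6.31 to 6.47 on wild-type arrays. Of 6 tested mesothelial and stromal markers, 5 were lower, among them Col1a2 (-1.77) and Col1a1 (-1.53), with a mean of 4.16 to 4.42 on labelled-knockout arrays and 4.92 to 5.14 on wild-type arrays. Over all tested genes, 4.75% were called higher and 8.72% lower. The mesothelial markers Msln, Lrrn4 and Krt19 lay at background on all 8 arrays. Wt1, in the same list, read 4.11, 4.19, 4.31 and 3.82 on wild-type arrays at 0, 1, 2 and 4 h, above background. On every labelled-knockout array Wt1 lay below background. It passed the low-level filter through its wild-type values, so its place among the tested markers rests on them. The brighter probe set of Upk3b lay above background on 6 arrays. The part of either list in the differences of Ccl24, Ccl17 and Ccl8 was not tested.

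Eosinophil markers averaged 3.25 to 3.49 on labelled-knockout arrays and 3.19 to 3.39 on wild-type arrays, with Prg2, Il5ra and Ccr3 at background on all 8 arrays. Dendritic cell markers averaged 3.27 to 3.51 on labelled-knockout arrays and 3.10 to 3.43 on wild-type arrays, with Xcr1 at background on all 8, and neither of the 2 tested was called. T and NK cell markers averaged 3.63 to 3.92 on labelled-knockout arrays and 3.39 to 3.50 on wild-type arrays, with Cd3g at background on all 8 arrays. Of the 2 tested, Cd3e was higher by 0.89 (limma adjusted p = 0.0124). Cd3d, at 3.25 to 3.64 in labelled-knockout cells and 3.10 to 3.34 in wild-type cells, was not called. Mast cell markers averaged 2.94 to 3.12 on labelled-knockout arrays and 3.18 to 3.51 on wild-type arrays, and B cell markers 3.10 to 3.19 on labelled-knockout arrays and 3.18 to 3.56 on wild-type arrays. Neutrophil markers averaged 5.99 to 7.01 on labelled-knockout arrays and 5.18 to 5.83 on wild-type arrays. Of 4 neutrophil markers only S100a9 was called, higher by 3.12. The other neutrophil markers, in labelled-knockout against wild-type cells, read 10.47 to 11.85 against 10.39 to 11.79 (S100a8), 3.28 to 3.60 against 3.34 to 3.71 (Camp) and 3.40 to 4.55 against 2.83 to 3.29 (Ngp). Of 3 mast cell markers Cpa3 was lower at -1.44, and neither of the 2 tested B cell markers was called. Of 8 general macrophage markers 2 were higher (Itgam at 0.90 and Adgre1 at 0.71) and 1 was lower (Fcgr1 at -0.87). These small counts stand beside 4.75% of all tested genes called higher and 8.72% called lower. The part of these markers in the chemokine differences was not tested.

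For each chemokine the 3 genes with the most similar profile were found by Pearson correlation over the 8 arrays among the other 12530 tested genes, as a description of profiles that share the same arrays and LPS course. Ccl3 and Ccl4 had the same 3, Il1b, Slfn2 and Sdc4, with correlations of 0.998, 0.997 and 0.995 for Ccl3 and 0.999, 0.999 and 0.998 for Ccl4. Ccl2 was most like Sod2 (0.997), Cxcl10 (0.996) and Dusp16 (0.995), and Ccl7 like Cd69, Cd40 and Gch1 (each 0.994). Ccl5 was most like Ccl9 (0.990), another CC chemokine, then Clec4e (0.989) and Mt2 (0.986). Ccl12 was most like Rab3ip (0.991), Fabp3 (0.989) and Prkx (0.986).

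The remaining chemokines had other partners. Ccl24 was most like Npy (0.998), Prg4 (0.998) and Apoc1 (0.996), of which Prg4 is in the list of resident macrophage markers. Ccl17 was most like Slpi (0.962), Lcn2 (0.953) and Cfb (0.953), Ccl22 like Tbc1d1 (0.989), Morrbid (0.977) and Lrch3 (0.975), and Ccl8 like Lrpap1 (0.992), Ssr4 (0.989) and Pglyrp1 (0.987).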

How the data were processed

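The authors deposited 1 table of log2 expression values for 45101 probe sets on 8 Affymetrix arrays, made by RMA per the submitters' processing notes. The sources used here give no version for RMA. RMA includes quantile normalization, which sets all arrays to nearly the same distribution (column medians 3.14 to 3.21). A shift shared by most genes therefore cannot be seen. The number of arrays limits the precision.

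A gene was represented by its single-symbol probe set of highest mean. Of all probe sets, 34945 had 1 symbol, 932 had several and 9224 were unnamed here, and 34741 of the single-symbol ones were found in the RefSeq table. A gene was tested when the second-highest of its arrays reached the median of all values, 3.16. Tests used limma 3.58.1 in R 4.3.3 (lmFit, eBayes, Benjamini-Hochberg, threshold 0.05). The 7 comparisons were the genotype difference over 4 times, LPS responses at 1, 2 and 4 h, steps from 1 h to 2 h and from 2 h to 4 h, and, in a fit with 2 residual degrees of freedom, the change of the genotype difference after LPS.

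Alternatives were cyclic loess, centring on 10 housekeeping genes, other filters and probe set rules, trend and robust eBayes, no block, a 2-fold minimum and leaving out arrays. Raising values to the array background was added after seeing the data. The genes, lists and tests were chosen with earlier results of these data known. Genes named were the 10 chemokines, Zc3h12a, up to 4 of each list with the smallest genotype p, and the 3 most correlated with each chemokine. Ccr2, Ccr3, Ccr4, Ccr7, Ccr8, Msln, Lrrn4, Krt19, Prg2, Il5ra, Xcr1, Ptgs2 and Cx3cl1 were named after their values or positions were seen. So were Wt1, Upk3b, Il4ra, Clec10a, Il13ra1, Pdcd1lg2, Stat6 and Cd3g. On simulated data with the same design, the genotype test recovered 85 of 100 genes changed by 1 log2 unit and 97 of 100 changed by 2, and 4.71% of its calls were false. The interaction test recovered 0 of 100 and 35 of 100. In the simulation of the genotype test the added change was equal at all 4 times, unlike the differences of Ccl5, Ccl17 and Ccl22. It changed 100 genes by each amount, whereas 1690 genes were called for genotype in the data. Neither the recovery nor the share of false calls therefore carries over directly.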

Additional observations from a re-analysis of the deposited data

Results flagged for a closer look

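Ccl17 moved in opposite directions between 1 h and 2 h in the 2 genotypes. Its 2 h array read 0.41 below its 1 h array in labelled-knockout cells (-0.41), whereas in wild-type cells it read 1.84 above it. Each value compares 1 array with 1 array, and the difference between the genotypes in this step was not tested.

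For Ccl22 the sign of the genotype difference changed with time. Labelled-knockout cells differed from wild-type cells by -2.31 at 2 h and by -2.24 at 4 h. At 0 h they read 0.73 higher, but the wild-type value lay below its array background, so only a bound of at least 0.61 can be given. That bound rests on 1 array of each genotype. The change between single times was not tested, and the fit that sets all times after LPS against 0 h gave a limma adjusted p of 1.00. A movement counted as opposite when both values were at least 0.25 from 0, a limit chosen after seeing the data.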

How the results depend on the processing

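The genotype fit was paired by time, each labelled-knockout array being set against the wild-type array of the same time, and the labels carry no replicate numbers for any other pairing. The number of genes called for genotype was 1690, and it was 942 without both 4 h arrays, 597 without both 0 h arrays, 333 with a 2-fold minimum and 150 with no time block. With 1 array left out it ran from 597 to 1237, and the number of the 10 chemokines called higher ran from 1 to 2. That number was 1 without both 0 h arrays and 1 with no time block. With no genotype block and with a 2-fold minimum, the genes called were 614 and 542 for LPS at 1 h (454 to 1086 with 1 array left out), 3383 and 2025 at 2 h (3141 to 5248), 1262 and 959 for the step from 1 h to 2 h (1201 to 2613) and 1269 and 994 for the step from 2 h to 4 h (1331 to 2471). At 4 h the 2-fold minimum gave 2570, and 3951 to 5425 were called with 1 array left out. The chemokines called in the step from 1 h to 2 h numbered 2 with no genotype block, 1 with a 2-fold minimum and 1 to 4 with 1 array left out, and those in the step from 2 h to 4 h numbered 1 to 3. The interaction gave 15 genes with trend and robust settings and 0 to 6 with 1 array left out, with 0 to 1 chemokines called lower. Signs turned only for uncalled values. For genotype these were Ccl4 (0.0077 after cyclic loess, 0.057 without both 4 h arrays, -0.083 to 0.057 with 1 array left out) and Ccl3 (-0.013 after housekeeping centring). For LPS, Ccl8 became 0.046, 0.18 and 0.28 at 1, 2 and 4 h and 0.13 in the step from 1 h to 2 h after housekeeping centring, and 0.020 at 4 h after cyclic loess. Ccl24 became -0.048 in the step from 2 h to 4 h after cyclic loess. In the interaction Ccl2 and Ccl3 became -0.076 each after housekeeping centring, and Ccl2 -0.037 and Ccl8 0.0066 without both 4 h arrays. With 1 array left out, the LPS response at 1 h ran from -0.26 to 1.39 for Ccl17, -0.55 to 1.66 for Ccl22 and -0.11 to 0.25 for Ccl24. The step from 1 h to 2 h ran from -0.11 to 1.54 for Ccl17 and -0.0058 to 0.35 for Ccl24, and that from 2 h to 4 h from -0.079 to 0.12 for Ccl3, -0.012 to 1.09 for Ccl5, -0.016 to 0.063 for Ccl8 and -0.12 to 0.16 for Ccl24. The interaction ran from -0.037 to 0.040 for Ccl2, -0.041 to 0.078 for Ccl3 and -0.046 to 0.0066 for Ccl8. The causes were not tested. The 4 h comparisons were not run without both 4 h arrays, and the interaction could not be fitted without a 0 h array. Where 1 array was left out, the lone array of that time was assumed to vary like the others. Values at or below array background, for Ccl12 and Ccl22 at 0 h, give only bounds.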
